A study of Mus musculus with 2 samples.

Results

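Messenger RNA of 7 genes of purinergic signalling was followed in single mouse brain cells: the ADP receptor genes P2ry12 and P2ry13, the UDP receptor gene P2ry6, the ATP-gated channel genes P2rx4 and P2rx7, the adenosine receptor gene Adora3 and the ectonucleotidase gene Entpd1. They are 7 of the 27998 genes in the deposited count matrices and were chosen by symbol, as genes that sense or break down extracellular nucleotides. All 7 were found in the matrices. The data are droplet single-cell libraries (10x Genomics) of brain cells from adult C57BL/6J mice. Brains of both groups were perfused and digested with warm papain, and a Percoll step took away myelin. Live cells carrying the myeloid surface proteins CD11b and CD45 were then sorted by flow cytometry. The CD library comes from 4 pooled mice that ate control diet throughout, for 19 days. The Repop D5 library comes from 6 pooled mice that ate PLX5622 for 14 days, followed by 5 days of control diet. PLX5622 blocks Csf1r, a receptor without which most microglia die. Which of the Repop D5 cells outlived the inhibitor and which arose afterwards is not stated in the labels. Each group is 1 library, so diet, mice and library preparation cannot be told apart and no test between groups was possible.

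Microglia, the resident macrophages of the brain, read extracellular nucleotides as signs of activity and damage. ATP opens the P2X channels, and ADP, made when ectonucleotidases cleave ATP, draws microglial processes towards its source through the Gi-coupled receptor P2Y12. P2Y6 is a Gq-coupled receptor for UDP known for promoting phagocytosis, and Entpd1 (CD39) turns ATP and ADP into AMP, from which adenosine, the ligand of the Adora receptors, is made.

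The CD library held 609 cells, all retained, with 6055886 UMIs (unique molecular identifiers, each a captured transcript), and the Repop D5 library 585 cells, of which 553 were retained with 11037921 UMIs. A retained Repop D5 cell had 16226 UMIs in the median against 5982 in CD, 2.71-fold more, at 0.564 M and 0.544 M reads per cell. The libraries shared 1 barcode. All 12 microglia markers (Tmem119, Cx3cr1 and others, none of them among the 7 genes) reached 10 CPM (UMIs per 1000000 UMIs of the library) in both libraries, and their summed level was 32826 CPM in CD against 14663 CPM in Repop D5. Csf1r, the inhibitor's target, had 3259 CPM in CD against 1382 CPM in Repop D5. Markers of other cells differed too: from CD to Repop D5 the summed level of 9 border macrophage markers was 1014 and 114 CPM (Cd209f at 0 in Repop D5), of 8 monocyte markers 300.2 and 400.0 CPM, of 9 neutrophil markers 13139 and 2097 CPM, and of 4 erythroid markers 1638 and 2.72 CPM. Their part in the results below was not tested.

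The cells fell into 11 clusters, made without the 7 genes. Clusters 0 (226 CD cells) and 2 (184 CD cells) were microglia-like and led by Lag3. Microglia-like clusters of Repop D5 were 1, 3, 5 and 6. Cluster 1 (205 cells) was led by the histone gene Hist1h2ap and mitotic genes such as Cenpe, and cluster 3 (140 cells) by Ch25h. Cluster 5 (76 cells) was led by Rtp4 and the interferon-induced Ifi27l2a, and cluster 6 (67 cells) by the cytokine genes Tnf and Cxcl10. Cluster 4 was border macrophage-like (114 CD cells), cluster 7 monocyte-like (55 Repop D5 cells), cluster 9 neutrophil-like (23 CD and 7 Repop D5 cells), and cluster 8 (51 CD cells, led by MHC class II genes) stayed unnamed. No cluster held 20 or more cells of both libraries. Cluster 2 had the astrocyte marker Slc1a3 among its 10 leading genes, though all 12 microglia markers reached 50 CPM in it. Their summed level was 36546 CPM there and 36964 CPM in cluster 0. No microglia-like cluster had 1 of the 12 among its 10 leading genes. Values between the libraries are led by those of all retained cells, which include other cell types. Values summed over the microglia-like clusters stand beside them.

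The sequences 250 bases before the transcription start are shown for 3 genes whose levels ran closely together over the clusters (below), with the letters GAGGAA, the core of sites bound by the myeloid factor PU.1, in capitals. They come from RefSeq on GRCm38.p6, whose table covered 6 of the 7 genes with 8 start sites. Windows are relative to the RefSeq start, which for P2ry12 lies 114 bases upstream of the end of the GENCODE gene given below. The Adora3 window, at 105904171 to 105904420 of chromosome 3, lies inside the GENCODE gene given below and not before it. So do the windows of the second Entpd1 and second P2rx7 starts.
P2ry12, minus strand, chr3:59262986-59263235: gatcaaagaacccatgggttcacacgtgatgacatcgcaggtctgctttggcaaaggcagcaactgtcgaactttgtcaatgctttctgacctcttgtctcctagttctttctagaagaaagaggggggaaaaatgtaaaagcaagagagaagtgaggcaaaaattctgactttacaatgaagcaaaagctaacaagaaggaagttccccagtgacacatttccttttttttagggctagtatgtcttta
P2ry13, minus strand, chr3:59210883-59211132: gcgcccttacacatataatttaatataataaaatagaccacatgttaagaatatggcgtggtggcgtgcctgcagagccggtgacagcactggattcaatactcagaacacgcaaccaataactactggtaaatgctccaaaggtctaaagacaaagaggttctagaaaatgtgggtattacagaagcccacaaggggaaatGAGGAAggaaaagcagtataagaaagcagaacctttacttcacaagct
Entpd1, the second of its start sites, plus strand, chr19:40659520-40659769: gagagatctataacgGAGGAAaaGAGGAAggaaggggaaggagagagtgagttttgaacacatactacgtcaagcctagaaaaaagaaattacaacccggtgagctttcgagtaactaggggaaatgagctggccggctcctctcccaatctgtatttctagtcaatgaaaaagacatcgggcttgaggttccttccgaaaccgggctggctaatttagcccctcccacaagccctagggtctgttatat
Both strands were searched for each motif. GAGGAA was present on the gene's strand 48 bases before the P2ry13 start and 235 and 227 bases before the second Entpd1 start, and on the other strand 28 bases before the Adora3 start. The P2ry12 window held no match on either strand, and neither did the window of the first Entpd1 start, which is not shown. Of the 8 windows, 3 held a match, and of all 32851 windows of this length 23.3% did. The AP-1 letters TGANTCA were present 249 bases before the first P2rx7 start and 98 bases before the Adora3 start, and in 6.75% of all windows. The interferon regulatory factor motif matched none of the 8 windows and 2.98% of all windows. These matches are letters in a window and say nothing of binding.

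All 7 genes were at a lower level in Repop D5 than in CD in CPM, and by very unequal amounts. P2ry12, the most abundant of them in both libraries, was 6.04-fold lower, P2ry13 4.19-fold, Entpd1, P2rx7 and Adora3 about alike between 2.79-fold and 3.09-fold, and P2rx4 and P2ry6 1.66-fold and 1.64-fold. A gene was counted as lower or higher at a ratio of at least 1.5 in that direction with a 95% interval clear of 1, if it had 10 CPM in 1 library. By that rule 7 of 7 were lower and 0 higher, beside 42.1% lower and 16.8% higher of the 8463 genes measured. The median log2 ratio was -1.49 for the 7 genes and -0.38 for all measured genes. Summed over the microglia-like clusters, 7 of 7 were again lower, beside 40.4% lower and 17.5% higher of 8422 genes, with medians of -1.67 and -0.36. Intervals here cover counting error only and not the spread between mice.

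Scaling set how many of the 7 passed. With a trimmed-mean scaling, which raised every log2 ratio by 0.46, the share of all genes counted as higher became 30.6% and as lower 21.3%, and 5 of the 7 stayed lower, while P2ry6 and P2rx4 no longer passed. Totals without mitochondrial and ribosomal protein genes, and cells thinned to 3000 UMIs each, left the same 5. Of all genes, 29.7% were lower and 23.6% higher without those genes, and 32.6% lower and 15.2% higher in thinned cells. Per retained cell the picture was different again, since the larger UMI yield of Repop D5 cells raised every log2 ratio by 1.01: 54.9% of genes were then higher and 7.43% lower, and of the 7 only P2ry12, P2ry13 and Entpd1 remained lower.

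**Figure D1:**
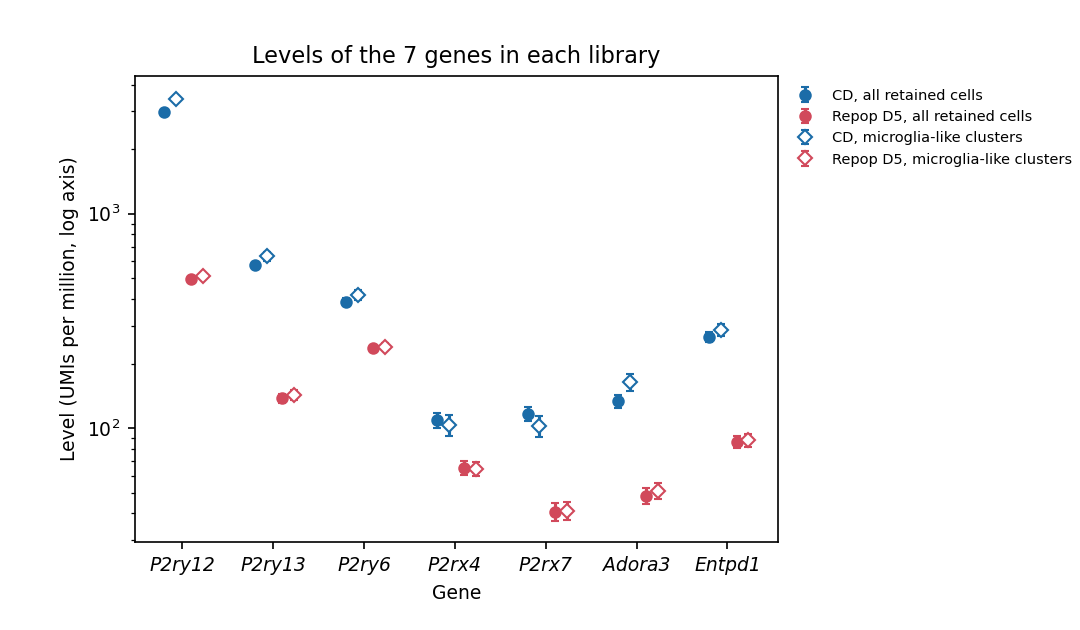
Level of each gene (CPM, log axis) in CD (blue) and Repop D5 (red), over all retained cells (circles) and over the microglia-like clusters (diamonds), with exact Poisson 95% intervals. P2ry12 lies at 2988 CPM for CD against 495 CPM for Repop D5, and P2ry6 at 388 and 236 CPM.

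P2ry12 encodes the ADP receptor that marks resting microglia. It lies on chromosome 3, minus strand, at 59216272 to 59262871 (mm10), inside the span of Med12l, which is on the opposite strand and shares 9 exonic bases with it. It counted 18096 UMIs in CD, 2988 CPM (95% interval 2945 to 3032), and 5464 UMIs in Repop D5, 495 CPM (482 to 508). That is 6.04-fold lower (5.86 to 6.22), and only 2.16% of measured genes had a smaller ratio. Its place among all genes by level moved from 29 in CD to 292 in Repop D5. Per cell it counted 29.7 UMIs in CD and 9.88 in Repop D5, 3.01-fold lower (2.92 to 3.10). Summed over the microglia-like clusters it stood at 3445 and 515 CPM, 6.69-fold lower (6.47 to 6.92).

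P2ry13, the other Gi-coupled ADP receptor gene, is the neighbour of P2ry12 on the same strand, at 59207892 to 59210882 of chromosome 3, also inside Med12l but sharing 0 exonic bases with it. It stood at 577 CPM (558 to 596) in CD and 138 CPM (131 to 145) in Repop D5, 4.19-fold lower (3.95 to 4.46). Per cell it counted 5.73 and 2.75 UMIs. P2ry12 differed more than P2ry13: there were 5.18 P2ry12 UMIs for each P2ry13 UMI in CD (5.00 to 5.37) and 3.60 in Repop D5 (3.40 to 3.81), a ratio that no scaling between libraries can move. Med12l itself, a Mediator subunit gene, was at 24.6 and 14.4 CPM, 1.71-fold lower (1.36 to 2.15), and did not pass with either the trimmed-mean scaling or counts per cell. Whether the counting used strand is not given in the sources used here, so reads of Med12l and of the receptor genes inside it may not be fully separated.

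P2ry6 (chromosome 7, minus strand, 100937630 to 100974649) behaved differently from the ADP receptor genes. It stood at 388 CPM (372 to 404) in CD and 236 CPM (227 to 245) in Repop D5, 1.64-fold lower (1.55 to 1.74), and 36.0% of measured genes had a smaller ratio. Counted per cell, there were 3.86 UMIs in CD and 4.71 in Repop D5, a ratio of 1.22 (1.15 to 1.29), so the direction turned with the scaling. In the microglia-like clusters alone the values per cell were 3.09 and 4.92, 1.59-fold higher (1.49 to 1.71). Against its relatives, the shift did not depend on scaling. For each P2ry6 UMI there were 7.70 P2ry12 UMIs in CD (7.38 to 8.05) and 2.098 in Repop D5 (2.00 to 2.20). P2ry6 had 0.673 UMIs per P2ry13 UMI in CD (0.638 to 0.709) and 1.72 in Repop D5 (1.61 to 1.83), so the UDP receptor gene counted below P2ry13 in CD and above it in Repop D5.

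The ATP-gated channel genes P2rx7 (122643911 to 122691432) and P2rx4 (122707544 to 122729738) lie side by side on the plus strand of chromosome 5. P2rx4, whose channel is linked to microglial activation after nerve injury, stood at 108 CPM (100.4 to 117) in CD and 65.2 CPM (60.6 to 70.2) in Repop D5, 1.66-fold lower (1.49 to 1.85). Per cell it counted 1.08 UMIs in CD and 1.30 in Repop D5, so its direction, like that of P2ry6, turned, and in the microglia-like clusters it was 1.74-fold higher per cell (1.52 to 2.00). P2rx7, the channel gene whose product responds to high ATP and triggers the NLRP3 inflammasome, stood at 116 CPM (108 to 125) and 40.7 CPM (37.0 to 44.6), 2.85-fold lower (2.53 to 3.22). There were 1.07 P2rx7 UMIs for each P2rx4 UMI in CD (0.961 to 1.19), an interval that includes 1, and 0.624 in Repop D5 (0.553 to 0.703). P2ry6 and P2rx4 kept nearly the same proportion, 3.58 P2ry6 UMIs per P2rx4 UMI in CD (3.28 to 3.90) and 3.62 in Repop D5 (3.33 to 3.93).

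Adora3, the gene of the Gi-coupled A3 adenosine receptor (chromosome 3, plus strand, 105870858 to 105908926), stood at 134 CPM (125 to 143) in CD and 48.0 CPM (44.0 to 52.3) in Repop D5, 2.79-fold lower (2.49 to 3.11). It shares 779 exonic bases, 20.9% of its own, with Tmigd3 on the same strand, which counted 0.330 and 0.181 CPM, so its count is uncertain to the extent that reads of the shared part were split or dropped. Entpd1 (chromosome 19, plus strand, 40612366 to 40741602) stood at 266 CPM (253 to 279) in CD and 86.0 CPM (80.6 to 91.6) in Repop D5, 3.09-fold lower (2.85 to 3.36). Per cell, Adora3 counted 1.33 and 0.958 UMIs and Entpd1 2.65 and 1.72 UMIs. Per cell Entpd1 was 1.54-fold lower (1.42 to 1.67), while the difference of Adora3, 1.39-fold (1.24 to 1.55), was short of the ratio of 1.5, as was that of P2rx7. Over the microglia-like clusters P2ry12 was 2.41-fold and P2ry13 1.59-fold lower per cell, and by the same rule P2ry6 (1.59-fold) and P2rx4 (1.74-fold) were higher. The share of all genes passing per cell in those clusters was not computed. Adora3 (1.16-fold lower) and Entpd1 (1.18-fold lower) did not pass there. P2rx7 did not pass either and lay the other way, at 0.751 UMIs per cell in CD and 0.845 in Repop D5. Its ratio was 1.12 (0.968 to 1.31), an interval that includes 1.

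By UMI count, the order in CD was P2ry12, P2ry13, P2ry6, Entpd1, Adora3, P2rx7 and P2rx4. The Poisson intervals of P2rx4 and P2rx7 overlapped, as did those of P2rx7 and Adora3. In Repop D5 the order was P2ry12, P2ry6, P2ry13, Entpd1, P2rx4, Adora3 and P2rx7, with overlapping intervals for Adora3 and P2rx7. These are counts of captured molecules with no correction for length, and capture may differ between genes.

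The share of each gene among the UMIs of the 7 does not depend on the scaling between libraries. The 7 genes summed to 27718 UMIs in CD, 4577 CPM, and to 12235 UMIs in Repop D5, 1108 CPM. P2ry12 made up 65.3% of them in CD (exact Clopper-Pearson 95% interval 64.7 to 65.8) and 44.7% in Repop D5 (43.8 to 45.5). P2ry6 took 8.47% in CD (8.15 to 8.81) and 21.3% in Repop D5 (20.6 to 22.0), and P2rx4 2.37% (2.19 to 2.56) and 5.88% (5.47 to 6.32). P2ry13 held 12.6% (12.21 to 12.99) and 12.4% (11.83 to 13.004), intervals that overlap. P2rx7 held 2.54% and 3.67%, Adora3 2.92% and 4.33%, and Entpd1 5.81% and 7.76%. P2ry12 was still the largest share in Repop D5, but below 50% of the UMIs of the 7 genes.

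**Figure D2:**
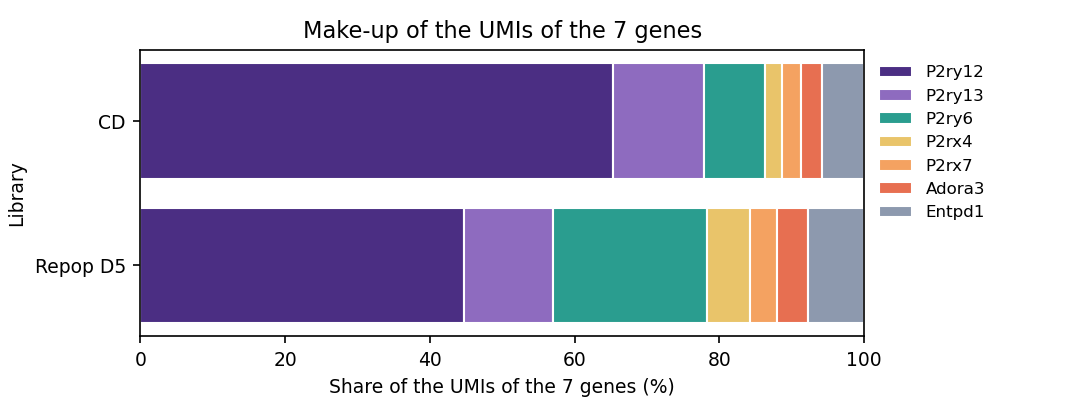
Share (%) of the UMIs of the 7 genes that each gene took in CD (27718 UMIs) and Repop D5 (12235 UMIs), over all retained cells. P2ry12 took 65.3% in CD and 44.7% in Repop D5, and P2ry6 8.47% and 21.3%.

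To compare single cells at equal depth, each cell was thinned to 3000 UMIs, which dropped 10 shallower cells of CD and none of Repop D5. At that depth a retained CD cell held 9 P2ry12 UMIs in the median (quartiles 6 and 12, 599 cells) and a Repop D5 cell 1 (quartiles 0 and 2, 553 cells). Of the CD cells 54.3% had at least 9 P2ry12 UMIs (325 of 599), and of the Repop D5 cells 0.542% did (3 of 553, exact Clopper-Pearson 95% interval 0.112 to 1.58). The upper quartile of Repop D5 lay below the lower quartile of CD. In the microglia-like clusters the medians were 10 and 1, with at least 10 UMIs in 228 of 405 CD cells and 2 of 489 Repop D5 cells. For P2ry6 the distributions overlapped largely: at least 1 UMI was present in 62.8% of CD (58.8 to 66.7) and 49.7% of Repop D5 (45.5 to 54.0).

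At least 1 P2ry12 UMI was found in 97.2% of the thinned cells of CD (95.5 to 98.3) and in 70.2% of those of Repop D5 (66.2 to 74.0). Without thinning these shares were 98.7% and 95.7%, at median depths of 5982 and 16226 UMIs. At equal depth the other shares, CD against Repop D5, were 79.0% and 33.5% for P2ry13, 53.4% and 22.4% for Entpd1, 32.2% and 13.6% for Adora3, 26.0% and 11.8% for P2rx7 and 27.5% and 18.99% for P2rx4.

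The neutrophil-like barcodes, which should lack P2ry12, give a background for the shares of their own library. Their median depths before thinning were 4804 UMIs in CD and 5416 in Repop D5. In the 22 thinned CD barcodes the shares were 68.2% for P2ry12 (15 of 22, 45.1 to 86.1), 36.4% for P2ry13, 22.7% for Entpd1, 18.2% for P2ry6, 9.09% for P2rx7, 4.55% for Adora3 and 0 for P2rx4 (exact upper limit 15.4%). The Repop D5 shares of P2ry12, P2ry13, Entpd1 and P2rx7 lie near these CD values. The CD barcodes belong to another library, so they cannot set the background of Repop D5. No Repop D5 share is read here as expression above background. In summed counts, the 23 neutrophil-like CD cells had 478 CPM of P2ry12 (361 to 620), 145 CPM of P2ry13 (84.5 to 232) and 85.3 CPM of Entpd1 (40.9 to 157), intervals that include the Repop D5 levels of all retained cells. The 7 neutrophil-like cells of Repop D5 itself had 12 P2ry12 UMIs, 224 CPM (116 to 391), 1 UMI of P2ry13, 18.7 CPM (0.472 to 104), and 3 of Entpd1, 56.0 CPM (11.5 to 164). The first 2 of these intervals lay below the levels of all retained Repop D5 cells, 495 CPM for P2ry12 and 138 CPM for P2ry13. That of Entpd1 included its 86.0 CPM. All 3 intervals rest on 7 cells. How much of the Repop D5 levels is background was not tested. At the thinned depth 3 of those 7 barcodes had a P2ry12 UMI and none had one of P2ry13, P2rx4, P2rx7 or Entpd1, while without thinning 1 of 7 did for each of these 4 genes.

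**Figure D3:**
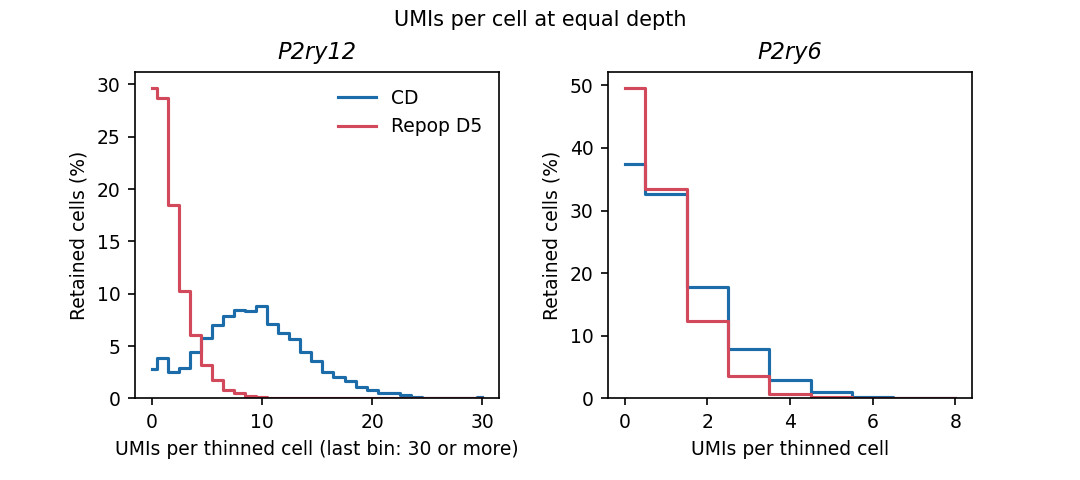
Percent of retained cells (y axis) by UMIs per cell thinned to 3000 UMIs (x axis) for P2ry12 (left) and P2ry6 (right), in CD (blue) and Repop D5 (red), over 20 draws. The P2ry12 median is 9 UMIs in CD and 1 UMI in Repop D5, while the P2ry6 curves overlap.

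P2ry12 was the gene with the most UMIs of the 7 in 548 of 599 thinned CD cells (91.5%, 89.0 to 93.6) and in 221 of 553 Repop D5 cells (39.96%, 35.9 to 44.2). P2ry6 took that place in 3 CD cells and in 72 Repop D5 cells (13.02%, 10.3 to 16.1). A tie was seen in 25 CD cells and 157 Repop D5 cells, and no UMI of any of the 7 in 6 and 35 cells. Across cells, the thinned counts of P2ry12 and P2ry13 had a Pearson correlation of 0.37 in CD and 0.11 in Repop D5, the highest of all pairs in each library. Counts this sparse hold down such values, and they are given as a description only.

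P2ry12 was far apart between the microglia-like clusters of the libraries. It stood at 3624 CPM (3516 to 3736) in cluster 0 and 3368 CPM (3286 to 3453) in cluster 2 of CD. In Repop D5 it stood at 457 CPM (438 to 475) in the mitotic cluster 1, 560 CPM (531 to 589) in cluster 3, 729 CPM (671 to 791) in the interferon-gene cluster 5 and 526 CPM (490 to 565) in the cytokine-gene cluster 6. Each microglia-like Repop D5 cluster lay below both microglia-like CD clusters for P2ry12, P2ry13, P2ry6, P2rx7, Adora3 and Entpd1. P2rx4 was the exception: 115 and 97.2 CPM in clusters 0 and 2, and 59.4, 60.2 and 61.6 CPM in clusters 1, 3 and 6, but 117 CPM (94.7 to 144) in cluster 5. The interferon-gene cluster had P2rx4 at the CD level, while its P2ry13, at 129 CPM (105 to 156), was no higher than the 140 CPM (130 to 151) of the mitotic cluster. Cluster 5 also had the fewest UMIs per cell of these clusters (9633 in the median, against 15772.5 to 22018 in the others), and the part of depth in this was not tested. With more, smaller clusters the highest P2ry12 level among microglia-like Repop D5 clusters was 3.30-fold the lowest, against 1.60-fold here.

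CD clusters outside the microglia-like ones carried the genes too. The border macrophage-like cluster had 2783 CPM of P2ry12 (2711 to 2857), 553 of P2ry13 and 267 of Entpd1, and the unnamed cluster 2317, 522 and 222 CPM. Their summed microglia markers were 31095 and 28794 CPM, against 36964 CPM in cluster 0, and how much of their P2ry12 came from free RNA or from microglia caught in the same droplet was not tested. P2rx7 was highest in the border macrophage-like cluster, at 148 CPM (132 to 166) against 88.1 CPM (71.9 to 107) and 111 CPM (96.5 to 127) in the microglia-like clusters of CD, intervals that do not overlap. P2rx4 had its highest value there too, 122 CPM (107 to 138), but its interval overlapped those of both microglia-like clusters. Adora3 went the other way, with 113 CPM (98.4 to 128) there and 165 and 164 CPM in clusters 0 and 2. In the neutrophil-like cluster of CD, P2ry6 was at 51.2 CPM (18.8 to 111) and Adora3 at 25.6 CPM (5.28 to 74.8), beside the P2ry12, P2ry13 and Entpd1 levels given above. The monocyte-like cluster of Repop D5 had the lowest P2ry12 of that library's clusters of 20 or more cells, 307 CPM (273 to 345), and Adora3 at 19.8 CPM (11.9 to 30.9), while P2rx4 at 74.0 CPM (57.8 to 93.3) and P2ry6 at 206 CPM (179 to 237) were close to the microglia-like clusters.

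**Figure D4:**
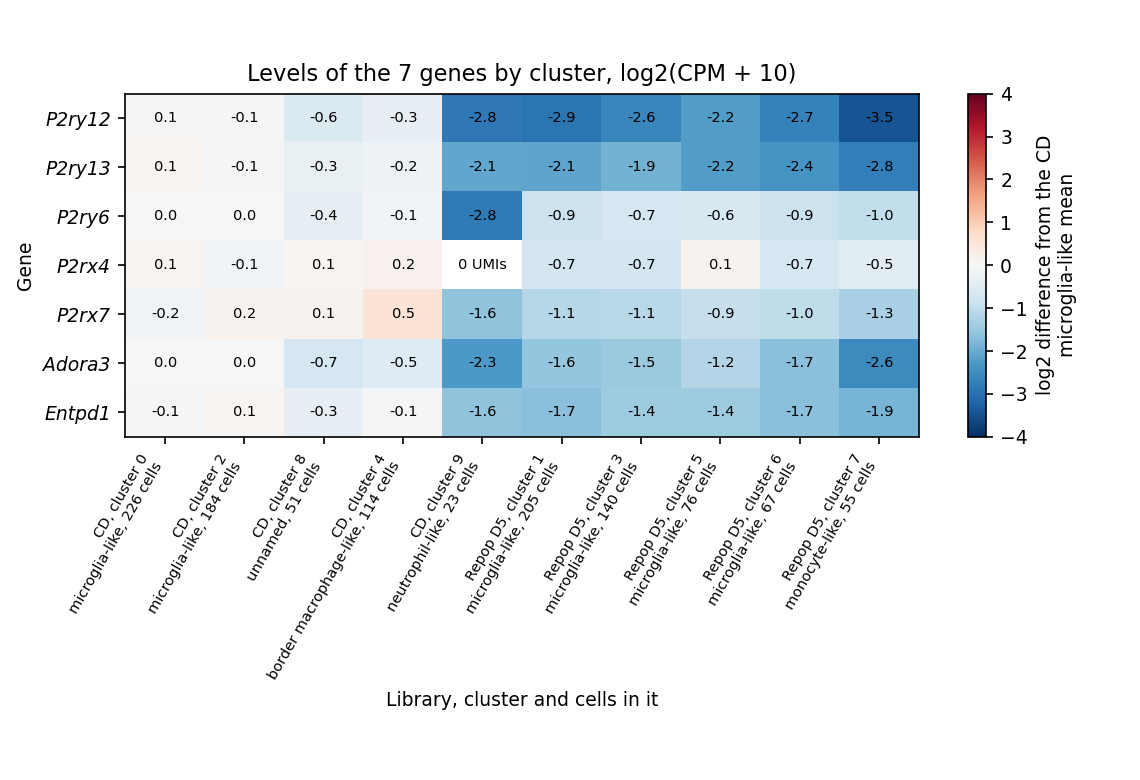
Level of each gene by cluster and library, as log2(CPM + 10) minus the mean of CD clusters 0 and 2 (blue lower, red higher, 4 log2 units at most on the scale). Every Repop D5 column is blue for 6 of the 7 genes, while P2rx4 in cluster 5 sits 0.14 above the CD mean, and P2rx4 in the neutrophil-like cluster is blank because it had 0 UMIs.

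Patterns over the 10 clusters with at least 20 cells of 1 library were compared with that of P2ry12. The Pearson correlation of log2(CPM + 10) with P2ry12 was 0.99 for Entpd1, 0.98 for P2ry13, 0.95 for Adora3 and 0.93 for P2rx7, but 0.67 for P2ry6 and 0.51 for P2rx4. P2ry6 and P2rx4 correlated at 0.95 with each other. The neutrophil-like CD cluster of 23 cells, with 6 UMIs of P2ry6 and 0 of P2rx4, is 1 of the 10 points. P2ry6 lay there at -2.82 log2 units from the CD microglia-like mean, and at -0.99 to -0.63 in the Repop D5 clusters. For P2ry12 these values were -2.85 and -3.46 to -2.25. How far the lower correlations of P2ry6 and P2rx4 rest on that cluster was not tested. Among 3431 genes at 50 CPM in 1 library, the 5 most like P2ry12 were Agmo, Snn, Asap1, Fchsd2 and Entpd1 itself, at 0.995 to 0.992. The 2 most like each of the others were Gal3st4 and Nav3 for P2ry13, Fam212a and Cd302 for P2ry6, Prcp and Bmyc for P2rx4, Qk and the microglial transcription factor gene Sall1 for P2rx7, Selplg and Abi3 for Adora3, and Tigd2 and Fam53b for Entpd1. These values describe 10 points that share libraries and depth, so a gene that merely differs between the libraries scores high.

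Within the microglia-like Repop D5 cells, the proliferation gene Mki67, with 1.49 CPM in the CD library against 122 CPM in Repop D5, allowed a split. P2ry12 stood at 691 CPM in the 172 cells with 0 Mki67 UMIs and at 466 CPM in the 212 cells with at least 2, a 1.48-fold difference (1.39 to 1.58). P2rx4 was at 76.2 and 58.9 CPM (1.29-fold, 1.07 to 1.56) and P2ry6 at 263 and 231 CPM (1.14-fold, 1.03 to 1.26), while the intervals of P2ry13, P2rx7, Adora3 and Entpd1 included 1. None of the 7 reached a ratio of 1.5. The cells with at least 2 Mki67 UMIs were also deeper, with 26017.5 UMIs in the median against 10959.5. From the shallowest to the deepest quartile of all retained Repop D5 cells P2ry12 was at 693, 560, 478 and 439.8 CPM, and in CD cells at 3527, 3010.3, 2897 and 2934 CPM, so cycling and depth were not separated here. The shallowest Repop D5 quartile lay far below the lowest CD value. Between retained cells of 5000 to 15000 UMIs (248 in CD, 227 in Repop D5), P2ry12 was 4.58-fold lower, P2ry13 3.45-fold, Entpd1 2.86-fold, P2rx7 2.37-fold and Adora3 2.14-fold, whereas P2ry6 (1.30-fold) and P2rx4 (1.23-fold, ratio interval 0.672 to 0.986) did not pass. Of all genes 32.9% were lower and 13.7% higher in that range. In microglia-like cells of the same range (164 in CD, 202 in Repop D5) the same 5 were lower, P2ry12 by 4.93-fold.

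Of 65 further genes listed for the pathway, 34 had 10 CPM in 1 library. Of these 19 were lower, 3 higher and 12 neither, beside the same 42.1% and 16.8%. Those shares and the median log2 ratio of all measured genes, -0.38, are the background of each list below. Those lower under each scaling tried, counts per cell included, were Gpr34, Slc17a9, Lrrc8a, Calhm2 and Pik3r5, and those higher under each were P2ry14, Adk and Itpr3.

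Of 7 P2Y receptor genes, P2ry6, P2ry12, P2ry13 and P2ry14 were measured, 3 lower and 1 higher. P2ry14, a Gi-coupled receptor gene for UDP-sugars in the same gene cluster as P2ry12, counted 5 UMIs in CD, 0.826 CPM, and 141 in Repop D5, 12.8 CPM, 15.5-fold higher (6.48 to 48.4). Its 5 CD UMIs were all outside the microglia-like clusters, where it had 0 UMIs, and against a floor of 3 counts over those CD clusters it was at least 13.3-fold higher in the Repop D5 ones, while the exact 95% interval of the ratio of 0 to 131 UMIs starts at 10.7. It was found in each of the 4 microglia-like clusters of Repop D5, at 10.3 to 18.9 CPM, and in 40 of 205 cells of cluster 1. The monocyte-like cluster of Repop D5 had it too, at 10.4 CPM (5.00 to 19.2) and in 8 of 55 cells. Gpr34, a relative that responds to lysophosphatidylserine, was at 1569 and 321 CPM, 4.89-fold lower (4.70 to 5.08). The list of the P2ry12 locus, with Gpr34 added as a relative, had 5 of 7 genes measured: P2ry14 was higher and the other 4 were lower (median log2 ratio -2.06). Of 7 P2X channel genes P2rx4 and P2rx7 were measured, and 4 had 0 UMIs in both libraries. Adora3 was the 1 measured of 4 adenosine receptor genes.

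Entpd1 was also the 1 measured of 8 ecto-enzyme genes of nucleotide breakdown, of which 4 had 0 UMIs in both libraries. Nt5e (CD73), which makes adenosine from AMP and is named here outside the rule for named genes, counted 4 and 9 UMIs, 0.661 and 0.815 CPM. Adenosine uptake and conversion had 4 of 7 genes measured: 1 was higher, 2 were lower and Pnp was neither. The median log2 ratio was -0.48, beside -0.38 for all measured genes. Adk, the adenosine kinase gene, was at 8.59 and 29.2 CPM, 3.40-fold higher (2.53 to 4.65), and Pnp, purine nucleoside phosphorylase, at 204 and 176 CPM. The nucleoside transporter genes Slc29a3 and Slc29a1 were 1.93-fold and 1.69-fold lower, and neither passed with the trimmed-mean scaling.

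Of 9 genes of nucleotide release 4 were measured, 3 of them lower, with a median log2 ratio of -1.81. That median was -0.73 with no minimum level and -1.15 with a pseudocount of 10 CPM. Slc17a9, the vesicular nucleotide transporter, was at 15.03 and 2.99 CPM, 5.03-fold lower (3.34 to 7.73), Lrrc8a, an essential subunit of volume-regulated anion channels, at 65.2 and 15.8 CPM, and the channel gene Calhm2 at 78.1 and 24.3 CPM, 3.22-fold lower (2.76 to 3.75). Lrrc8d, another subunit of those channels, stood at 35.2 and 30.6 CPM and was neither. Lrrc8c, with 8 and 90 UMIs (ratio 6.17, 3.00 to 14.7), and Lrrc8b, with 11 and 49 UMIs (ratio 2.44, 1.25 to 5.21), both under the minimum and named after their values were seen, lay the other way.

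Downstream of P2ry12, the Gi signalling list had 8 of 9 genes measured, 3 lower and 5 neither, with a median log2 ratio of -0.27. All measured genes had a median of -0.38 and 42.1% of them were lower, so this list did not lie below them. Gnai2, its most abundant gene and a Gi alpha subunit, was at 645 and 718 CPM, a ratio of 1.11 (1.07 to 1.16), and counted as higher with the trimmed-mean scaling and per cell. Pik3r5 and Pik3cg, subunits of PI3-kinase gamma, were 3.48-fold (2.86 to 4.23) and 2.12-fold (1.89 to 2.39) lower, and Rap1b and Adcy7 had ratios of 1.15 and 1.19. Kcnk13, the potassium channel gene THIK-1 that P2Y12 signalling is known to engage, named outside the rule, was at 85.5 and 48.6 CPM, 1.76-fold lower (1.56 to 1.99), and passed neither with the trimmed-mean scaling nor per cell. For the Gq list of P2ry6, 6 of 8 were measured, namely 3 lower, 1 higher and the other 2 neither (median -0.73, beside the same -0.38). Its inositol trisphosphate receptor genes went opposite ways: Itpr2 was at 111 and 43.7 CPM, 2.54-fold lower (2.26 to 2.86), and Itpr3 at 8.09 and 14.9 CPM, 1.85-fold higher (1.34 to 2.60). Per cell Itpr2 no longer passed. Plcb3 was 2.25-fold lower (1.75 to 2.91), and Plcb2 was neither.

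All 7 inflammasome genes downstream of P2rx7 were measured, 4 lower and 3 neither, with a median of -0.71. Of all measured genes 42.1% were lower, with a median of -0.38. Il1b was at 108 and 54.0 CPM and Il18 at 50.4 and 25.3 CPM, 2.00-fold (1.79 to 2.24) and 1.99-fold (1.69 to 2.35) lower. Both passed neither with the trimmed-mean scaling nor per cell, and in the microglia-like clusters Il1b went the other way, at 36.4 and 50.8 CPM, without passing. Pycard, the adaptor, stood at 459 and 471 CPM, a ratio of 1.03 (0.981 to 1.08), and Casp1 at 36.7 and 44.6 CPM. Both factors known to act on P2rx4 were lower, Irf8 at 582 and 334 CPM and Irf5 at 217 and 143 CPM, though neither passed with the trimmed-mean scaling.

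**Figure D5:**
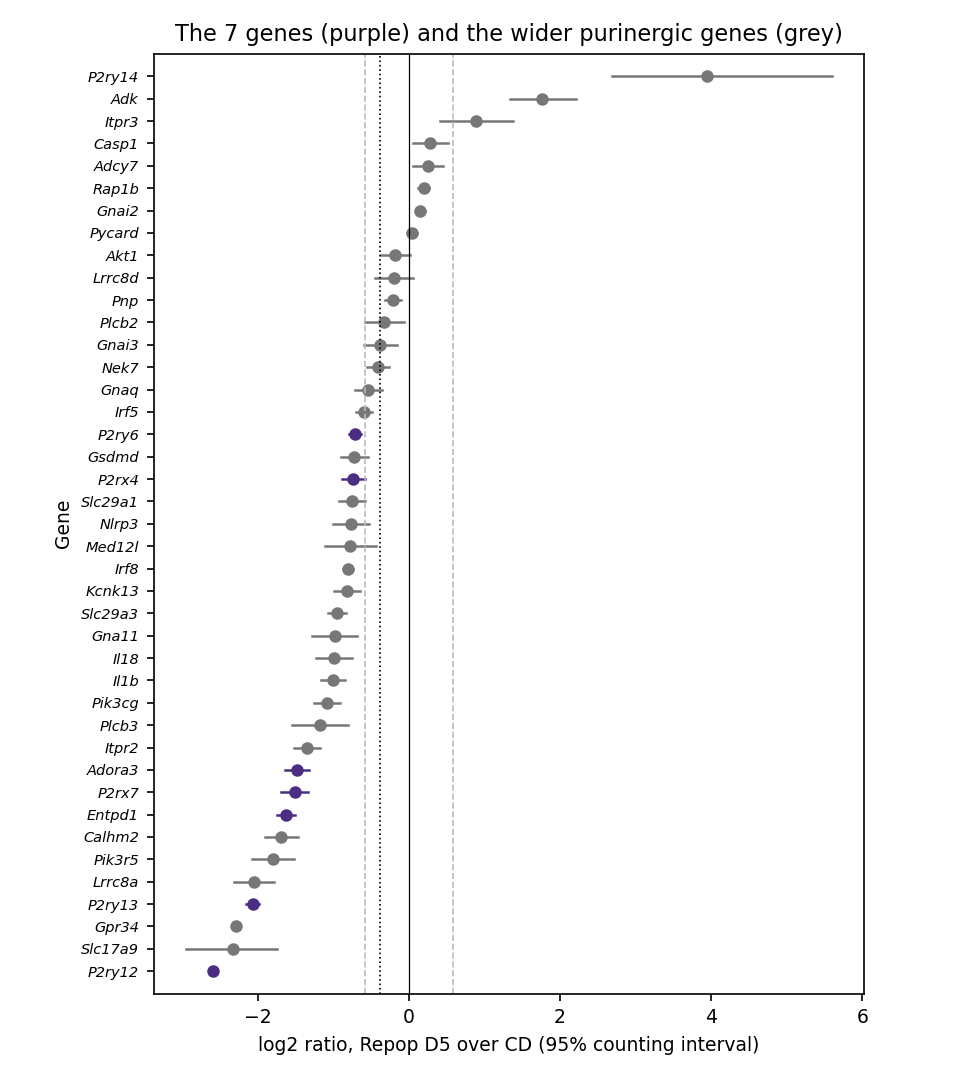
Log2 ratio of Repop D5 over CD with its 95% counting interval for 41 genes at 10 CPM in 1 library, the 7 genes in purple and the wider list in grey. Dashed lines mark a ratio of 1.5 either way and the dotted line the median of all measured genes (-0.38). P2ry12 has the lowest ratio of all 41 and P2ry14 the highest.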

How the data were processed

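The authors deposited whole-number UMI counts for each gene in each barcode, made with Cell Ranger 2.1.0 on mm10, per the submitters' processing notes. The annotation release and strand setting are not given in the sources used here. The 7 genes, the wider lists, the markers and the rules were chosen with earlier results of these data known.

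Retained cells had 500 genes or more and mt- genes below 10% of UMIs. No doublets were removed, and Scrublet marked 5 of 609 and 8 of 553 cells. Counts were summed per library and scaled to CPM. Ratios have exact conditional binomial 95% intervals, levels exact Poisson and shares exact Clopper-Pearson intervals. Cells were clustered without the 7 genes (scanpy 1.11.5, leidenalg 0.10.2, Python 3.11.15, 2000 variable genes, 30 components, 15 neighbours, Leiden resolution 1). A cluster takes another class's name from 3 of that class's markers among its 10 leading genes (at 50 CPM and in 25% of cells), stays unnamed with 2, and is otherwise microglia-like. Thinned values are medians of 20 draws for shares. List medians use log2(CPM + 1). Named genes are the 7, the 2 highest, 2 lowest and most abundant of each list, and the likest over clusters. Coordinates are from GENCODE M21. Alternatives were other cell filters, scalings (edgeR 4.0.16 for trimmed means), minimums, ratios, cell sets, clusterings and the authors' pooled matrix.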

Additional observations from a re-analysis of the deposited data

How the results depend on the processing

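No paired analysis was possible because each group is 1 library, and no library could be left out. The count of 7 lower genes became 3 per cell, and 5 in 5 other settings and at a ratio of 2. Of 98 alternative values of the 7 ratios, 50 stayed within the counting interval of the main ratio, 46 left it and 2 reversed. Among these values P2ry12 ranged from 6.69-fold lower in the microglia-like clusters to 3.01-fold lower per retained cell. Both reversals were per cell, where P2ry6 had a ratio of 1.22 and P2rx4 of 1.21. Counts per cell over the microglia-like clusters, not among the 98, moved further. P2ry12 was 2.41-fold lower there, while P2ry6 had a ratio of 1.59 and P2rx4 of 1.74. The 19 lower genes of the wider lists became 8 with trimmed means, 12 without mitochondrial and ribosomal protein genes, 9 at a ratio of 2 and 5 per cell, beside 21.3%, 29.7%, 23.8% and 7.43% of all genes. Their 3 higher genes became 8 with trimmed means, 5 without the mitochondrial and ribosomal protein genes, 16 per cell, 0 at a minimum of 50 CPM and 7 with no minimum. These were out of 35, 36, 36, 23 and 55 measured, in that order. Of all genes 30.6%, 23.6%, 54.9%, 23.5% and 11.3% were higher in the same settings.

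The median log2 ratio of all measured genes was 0.099 with trimmed means and 0.67 per cell. With trimmed means the median log2 ratio reversed to 0.026 for the ecto-enzyme list and to 0.17 for the Gi list. Per cell it reversed to 0.53 for the ecto-enzymes, 0.52 for adenosine uptake, 0.71 for the Gi list, 0.24 for the Gq list, 0.28 for the inflammasome list and 0.30 for the factors acting on P2rx4. In the ecto-enzyme list Enpp1, named after its values were seen, then joined Entpd1 above the minimum.

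The share of P2ry12 in CD was 66.4% with equal weight per cell, 66.2% both in thinned cells and outside the clusters named for other types, 66.9% in microglia-like clusters, and at 5000 to 15000 UMIs 66.1% in all retained and 67.4% in microglia-like cells. In Repop D5 it was 46.01% with equal weight, and 47.2% and 48.2% at 5000 to 15000 UMIs. Leiden resolution 2 moved the spread of P2ry12 over clusters from 1.60-fold to 3.30-fold. Counts per cell, microglia-like clusters and both ranges of 5000 to 15000 UMIs were added after seeing the data. The causes of these shifts were not tested, and counting intervals do not cover mice or libraries.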
